A study of Homo sapiens with 16 samples.

Results

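The markers of colon cancer stem cells, 10 genes, were followed by RNA-seq through 6 lines of SW480, a colon cancer cell line grown from a human adenocarcinoma. They were PROM1, CD44, EPCAM, CD24, ALCAM, BMI1, SOX9, OLFM4, SMOC2 and MSI1, and they were found by symbol as 10 of the 66023 genes in the counts. Ajuba, encoded by AJUBA, is a LIM domain scaffold protein whose level was lowered or raised in the lines. Parental (n = 2) is SW480 without a construct. shScrambled (n = 2) carries a puromycin-resistance shRNA plasmid whose hairpin matches no mammalian transcript, whereas shAjuba1 (n = 3) and shAjuba2 (n = 3) carry hairpins against the coding and the non-coding part of the AJUBA transcript. Ajuba OE (n = 3) carries a lentiviral construct with Ajuba under a CMV promoter and FLAG and HA tags, and Control (n = 3) received that construct with its Ajuba insert removed. The lines with a construct were selected with puromycin and each construct is represented by 1 stable line, so an effect of a construct cannot be told apart from a difference between lines. Nothing in the labels says that the samples of a line were separate cultures, and the paper calls them technical replicates. The p-values therefore measure the spread between these samples, which by that wording is technical.

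Cancer stem cells are the tumour cells that can renew themselves and seed a new tumour, and in colon cancer they are usually isolated by surface glycoproteins. CD133 (the product of PROM1), CD44, EpCAM, CD24 and CD166 (the product of ALCAM) are such surface markers, and most of them are adhesion molecules that normal colon epithelium also carries. BMI1, SOX9 and MSI1 are intracellular regulators of self-renewal in the crypt, and OLFM4 and SMOC2 encode secreted proteins made by stem cells at the crypt base. The RNA came from whole cultures, in which fewer cells of a type and less RNA per cell cannot be told apart.

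Between 30132396 and 69684675 read pairs were counted on genes per sample. Levels are given as RPM, the count divided by the total count of its sample and multiplied by 1e+06, and 3 counts, the limit that a count of 0 allows, came to between 0.0431 and 0.0996 RPM. For each pair of lines edgeR's quasi-likelihood test was run on all genes that passed the filter on low counts, and a gene passed where its p after Benjamini-Hochberg adjustment was under 0.05. AJUBA itself had a log2 fold change of -0.73 in shAjuba1 (adjusted p = 2.19e-05) and -0.46 in shAjuba2 (adjusted p = 0.0773, which did not pass, and -0.55 with 4.81e-04 without replicate 2), both against shScrambled, and of 2.56 in Ajuba OE against Control (adjusted p = 7.69e-05); the counts do not separate construct from endogenous transcripts. Replicate 2 of shAjuba2, Control and Ajuba OE stood apart from the other samples of its line. The median over genes of the chi-square statistic of 2 replicates, relative to the value that counting noise would give, was 6.32 to 14.3 for the pairs with it and 4.39 to 5.18 for the pairs without it. In shAjuba1 this median was 5.13 and 5.89 for the pairs with replicate 3 and 1.87 for the pair without it. Values without replicate 2 are given beside the results in shAjuba2 and Ajuba OE whose call it changes. The 5 epithelial markers (KRT8, KRT18, KRT19, CDH1 and CLDN4) summed to between 2898 and 6841 RPM in every sample. The markers of fibroblasts, leukocytes and endothelium summed to at most 26.9, 4.18 and 5.41 RPM.

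The markers differed in level over more than 4 orders of magnitude. Per kilobase of merged exons, SOX9 and EPCAM were the highest, with means over the 6 lines of 58.5 and 51.8 RPM per kb. CD44 followed at 15.8, BMI1 at 7.36, CD24 at 4.46 and MSI1 at 1.43 RPM per kb. ALCAM, at 0.146 RPM per kb, was low in this line, and it rests on 13 to 121 counts per sample. SMOC2, PROM1 and OLFM4 were at 0.0334, 0.00915 and 0.00196 RPM per kb. The gene for CD133, the best known of these markers, was therefore close to the detection limit in SW480: its 16 samples held 46 counts in all, and it was below the filter on low counts in every comparison with all samples.

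**Figure D1:**
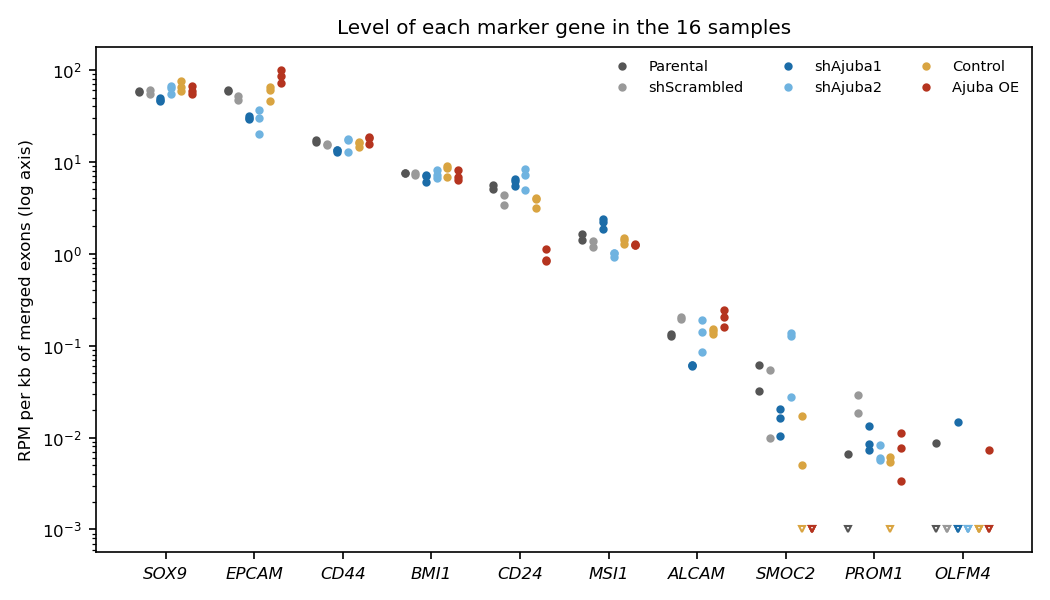
Level of each of the 10 genes in the 16 samples, in RPM per kb of merged exons on a log axis, with 1 point per sample coloured by line and open triangles at the bottom for samples with a count of 0. SOX9 (mean of lines 58.5) and EPCAM (51.8) lie at the top, whereas SMOC2, PROM1 and OLFM4 fall below 1 RPM per kb in every sample and reach 0 in 4, 2 and 13 samples.

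The start-site windows of 3 of the genes are given because these genes stand for the range of behaviour described next: CD24 with the largest change under overexpression, ALCAM with the largest change under knockdown, and BMI1 with no change that passed. Each is 300 bases in the direction of transcription, spanning the annotated start, taken from RefSeq on GRCh38.p14. CD24 lies at chr6:106975578-106975877 on the minus strand, ALCAM at chr3:105366659-105366958 on the plus strand and BMI1 at chr10:22320849-22321148 on the plus strand. Capitals mark matches on either strand to GGGCGG (the GC box) or CAGGTG (an E-box of the kind that SNAI family repressors bind).
CD24: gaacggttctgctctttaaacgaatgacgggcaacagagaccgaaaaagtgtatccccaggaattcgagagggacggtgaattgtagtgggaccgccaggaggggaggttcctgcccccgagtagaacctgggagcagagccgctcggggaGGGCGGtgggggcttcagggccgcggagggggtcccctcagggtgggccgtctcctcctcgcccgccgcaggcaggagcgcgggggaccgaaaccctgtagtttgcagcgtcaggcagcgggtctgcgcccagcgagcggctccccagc
ALCAM: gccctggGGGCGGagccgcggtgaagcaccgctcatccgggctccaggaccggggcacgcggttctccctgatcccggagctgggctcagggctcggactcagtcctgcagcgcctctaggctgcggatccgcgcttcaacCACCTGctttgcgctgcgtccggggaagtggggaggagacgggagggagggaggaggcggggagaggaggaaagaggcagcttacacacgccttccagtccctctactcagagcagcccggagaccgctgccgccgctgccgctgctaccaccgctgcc
BMI1: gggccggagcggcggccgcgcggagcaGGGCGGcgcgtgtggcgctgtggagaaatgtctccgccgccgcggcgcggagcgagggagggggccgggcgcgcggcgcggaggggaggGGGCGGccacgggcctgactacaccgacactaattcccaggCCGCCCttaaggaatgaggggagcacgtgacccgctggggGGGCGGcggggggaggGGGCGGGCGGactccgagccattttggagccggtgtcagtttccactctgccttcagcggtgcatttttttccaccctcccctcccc
A window was found for 7 of the 10 genes, and EPCAM, SOX9 and MSI1 had none in the table used. The GC content was 66.7% for CD24, 70.0% for ALCAM and 73.3% for BMI1, against a median of 58.7% over 35116 windows of the same length. CD24 had 1 GC box, ALCAM 1 and BMI1 6, of which a pair overlap, and GC boxes were found in 45.0% of all windows. ALCAM alone of these 3 had an E-box, 1 match, and 20.6% of all windows had one. PROM1 had 2 E-box matches and CD44, OLFM4 and SMOC2 had none. The TCF/LEF word CTTTGAT, the target of Wnt signalling, was in none of the 7 windows and in 2.6% of all windows. The matches are descriptions of these letters only.

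EPCAM (ENSG00000119888, chr2:47345158-47387601 of hg38, plus strand) encodes an adhesion protein that joins epithelial cells to each other and is the usual marker of carcinoma cells. Its level was lowest in the 2 knockdown lines and highest in Ajuba OE. In shAjuba1 the 3 samples were at 72.3, 76.3 and 71.6 RPM, and in shAjuba2 they were at 73.2, 48.3 and 87.9 RPM. The shScrambled samples were at 127 and 114 RPM and the Parental samples at 143 and 147 RPM. Every knockdown sample was thus below every sample of the other 4 lines. Control was at 156, 113 and 145 RPM and Ajuba OE at 242, 175 and 208 RPM, and these lines did not overlap either. EPCAM fell in shAjuba1 by a log2 fold change of -0.73 (standard error 0.0842, edgeR adjusted p = 2.36e-05), a 1.66-fold decrease. The estimate in shAjuba2 was -0.84 (standard error 0.220) and did not pass (edgeR adjusted p = 0.0603). Without replicate 2 it was -0.65 (edgeR adjusted p = 4.77e-04), without replicate 3 it was -1.03 (0.0307), and with DESeq2 it was -0.84 (0.0130). Without replicate 1 of shAjuba2 it did not pass (-0.86, edgeR adjusted p = 0.164). Leaving out replicate 1 or 2 of shScrambled, which leaves 1 sample in that line, gave -0.76 and -0.92. In Ajuba OE the log2 fold change was 0.65 (standard error 0.157, edgeR adjusted p = 0.0592). It passed without replicate 2 of Ajuba OE (0.76, edgeR adjusted p = 0.0438) and without replicate 2 of both lines (0.62, 0.00807). It did not pass without replicate 1, 2 or 3 of Control (0.76, 0.53 and 0.69, edgeR adjusted p = 0.0863, 0.112 and 0.185). Of the 5 other epithelial markers, 4 rose in shAjuba1 against shScrambled (median log2 fold change 0.29), opposite to EPCAM. Of all genes tested there, 18.2% passed as higher. Each of the 5 was lower in shAjuba1 than in Parental and in Control, as EPCAM was. Their mean summed level was 5119 RPM in shAjuba1 and 4029 RPM in shScrambled, but 6255 RPM in Parental and 5391 RPM in Control. Across these 3 control lines, 3 of the 5 passed, where 10.9% of all genes did. In shAjuba2, 0 of the 5 passed (median -0.09), where 7.63% of all genes did. Without its replicate 2, 1 passed, CDH1 as lower (-0.52, edgeR adjusted p = 0.0397), where 22.7% of all genes did. In Ajuba OE 1 passed, higher, with a median of 0.44 in the direction of EPCAM, where 2.39% of all genes passed as higher. Without replicate 2 of Ajuba OE, 2 passed, both higher, with CLDN4 added (0.55, edgeR adjusted p = 0.0410), where 4.57% of all genes passed.

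CD24 (ENSG00000272398, chr6:106969831-106975627, minus strand) encodes a small, heavily glycosylated protein held in the membrane by a lipid anchor, which binds P-selectin and a Siglec receptor of macrophages. Its order over the lines was nearly the reverse of that of EPCAM, with the lowest level in Ajuba OE. The 3 Ajuba OE samples were at 3.49, 2.65 and 2.56 RPM, and the Control samples at 12.3, 9.83 and 12.6 RPM. shScrambled was at 13.4 and 10.6 RPM, Parental at 15.5 and 17.3 RPM. shAjuba1 was at 19.4, 20.3 and 16.8 RPM and shAjuba2 at 22.2, 15.3 and 26.0 RPM. All Ajuba OE samples were below all other samples, and all knockdown samples were above shScrambled, but Parental overlapped both knockdown lines. CD24 fell in Ajuba OE by a log2 fold change of -1.93 (standard error 0.164, edgeR adjusted p = 8.51e-04), a 3.80-fold decrease, and it passed with every sample left out in turn (-2.06 to -1.85). In shAjuba1 it rose by 0.64 (standard error 0.130, edgeR adjusted p = 0.00186). That call was lost without replicate 2 of shScrambled (0.47, edgeR adjusted p = 0.0593) and with Parental as the control (0.17, edgeR adjusted p = 0.274). In shAjuba2 the estimate was 0.77 (standard error 0.225, edgeR adjusted p = 0.0805), which passed without replicate 2 (0.95, edgeR adjusted p = 9.06e-05) and with DESeq2 (0.78, 0.0256). It did not pass without replicate 1 (0.76, edgeR adjusted p = 0.19) or replicate 3 (0.62, 0.109) of shAjuba2, nor with Parental as the control (0.30, 0.352). The autosomal processed pseudogenes of CD24 held few counts, 5 for CD24P1, 3 for CD24P2 and 0 for CD24P5 over all samples, against 9618 for CD24.

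The 2 genes were also read against each other within each sample. The ratio of EPCAM to CD24 counts, chosen for description after the values were seen and not tested, was 3.28 ± 0.114 (SD, n = 3) in shAjuba2 and 3.92 ± 0.300 (n = 3) in shAjuba1. It was 8.86 ± 0.484 (n = 2) in Parental, 10.2 ± 0.875 (n = 2) in shScrambled and 11.9 ± 0.739 (n = 3) in Control. In Ajuba OE it was 72.2 ± 7.79 (n = 3). No 2 lines overlapped in this ratio. Replicate 2 of shAjuba2, which was the lowest of its line for both genes, had a ratio of 3.16, next to 3.29 and 3.39 in the other two.

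**Figure D2:**
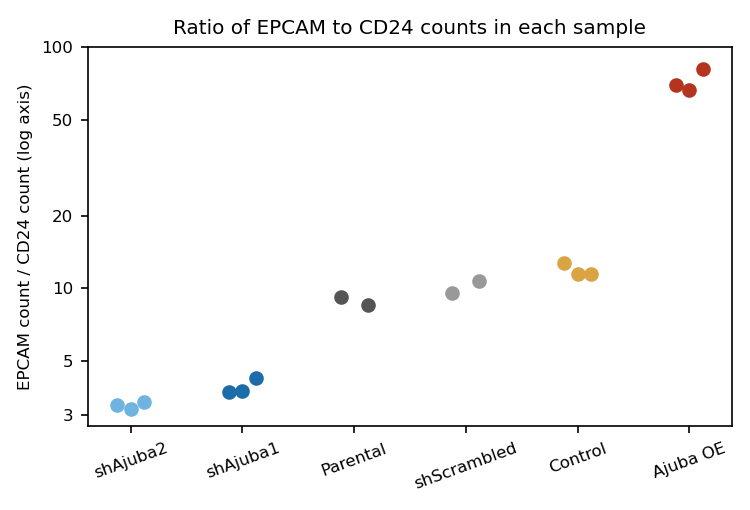
Ratio of EPCAM to CD24 counts in each sample on a log axis, with 1 point per sample and the lines ordered by their mean. The knockdown samples lie between 3.16 and 4.27, the 3 control lines between 8.52 and 12.8, and Ajuba OE between 66.2 and 81.0.

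CD44 (ENSG00000026508, chr11:35138882-35232402, plus strand) encodes the receptor for hyaluronan, and its many splice forms were not resolved by counts per gene. It varied little. The shAjuba1 samples were at 134, 133 and 127 RPM and the shScrambled samples at 157 and 151 RPM. shAjuba2 was at 174, 126 and 178 RPM, Control at 162, 145 and 162 RPM, Ajuba OE at 184, 157 and 185 RPM and Parental at 162 and 174 RPM. Apart from replicate 2 of shAjuba2, all samples of the other lines were above shAjuba1. The fall in shAjuba1 was small, with a log2 fold change of -0.24 (standard error 0.0768, edgeR adjusted p = 0.0240). It did not pass without replicate 1 of shScrambled (-0.20, edgeR adjusted p = 0.209), replicate 2 of shScrambled (-0.28, 0.0810) or replicate 1 of shAjuba1 (-0.26, 0.0923), nor with all 16 samples in 1 fit (-0.23, 0.206). The log2 fold change was 0.00 in shAjuba2 (edgeR adjusted p = 0.993) and 0.22 in Ajuba OE (edgeR adjusted p = 0.298). The antisense genes CD44-AS1 and CD44-DT share 84 and 70 exon bases with CD44 and held 544 and 230 counts, against 113985 for CD44.

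ALCAM (ENSG00000170017, chr3:105366909-105576900, plus strand) encodes an adhesion molecule of the immunoglobulin superfamily that binds CD6 on T cells and also itself. It was the lowest of the surface markers that could be tested. The shAjuba1 samples held 21, 13 and 16 counts, or 0.440, 0.431 and 0.442 RPM. The shScrambled samples held 54 and 70 counts, or 1.48 and 1.39 RPM, and shAjuba2 held 63, 27 and 49 counts, or 1.35, 0.608 and 1.01 RPM. Parental was at 0.972 and 0.914 RPM, Control at 1.08, 1.04 and 0.956 RPM and Ajuba OE at 1.74, 1.48 and 1.13 RPM. Every shAjuba1 sample was below every other sample, and shAjuba2 overlapped Parental, Control and Ajuba OE but not shScrambled. ALCAM fell in shAjuba1 with a log2 fold change of -1.72 (standard error 0.227, edgeR adjusted p = 7.87e-05), a 3.29-fold decrease, and passed under every alternative tried, with Parental as the control included (-1.13, edgeR adjusted p = 0.00366). It was -0.58 in shAjuba2 (standard error 0.311, edgeR adjusted p = 0.282) and 0.57 in Ajuba OE (standard error 0.205, edgeR adjusted p = 0.181), neither of which passed. With Parental as the control the value in shAjuba2 turned to 0.01 (edgeR adjusted p = 0.983).

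PROM1 (ENSG00000007062, chr4:15963076-16084378, minus strand) encodes CD133, a cholesterol-binding glycoprotein of membrane protrusions. Replicates 1 and 2 of shScrambled held 5 and 11 counts, and the other 14 samples held 0 to 4. FGFBP2 shares 166 exon bases with it and held 2 counts. Apart from shScrambled, neighbouring lines in the order of levels overlapped.

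**Figure D3:**
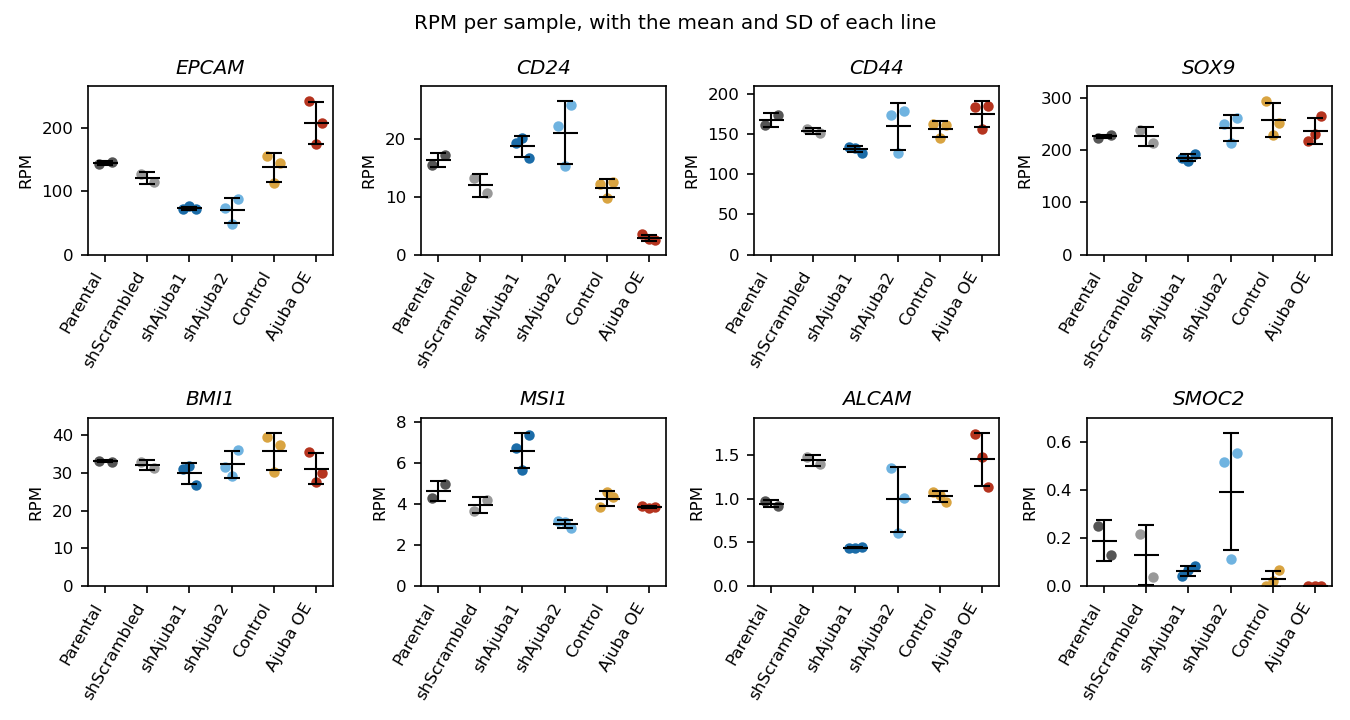
RPM of 8 of the genes in each sample by line, with 1 point per sample and a bar for the mean and SD of the line, on linear axes from 0 that differ between genes. EPCAM is lowest in the knockdown lines (73.4 and 69.8 on average) and highest in Ajuba OE (208), CD24 is lowest in Ajuba OE (2.90), and BMI1 stays between 26.7 and 39.6 in all samples.

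SOX9 (ENSG00000125398, chr17:72121020-72126416, plus strand) encodes a transcription factor of the crypt base and a target of Wnt signalling. It was lowest in shAjuba1, at 186, 180 and 193 RPM, against 239 and 214 RPM in shScrambled. The other lines lay between 214 and 294 RPM, and all of their samples were above shAjuba1. The log2 fold change in shAjuba1 was -0.30 (standard error 0.0817, edgeR adjusted p = 0.0115). The call was lost without replicate 1 of shScrambled (-0.20, edgeR adjusted p = 0.201) and without replicate 1 of shAjuba1 (-0.30, 0.0544), and with all 16 samples in 1 fit (-0.28, 0.108). It was 0.05 in shAjuba2 (edgeR adjusted p = 0.850) and -0.06 in Ajuba OE (0.871).

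MSI1 (ENSG00000135097, chr12:120341330-120369164, minus strand) encodes Musashi, an RNA-binding protein that represses translation of messengers such as NUMB, an inhibitor of Notch. It was the regulator that passed the test between the 2 knockdown lines. The shAjuba1 samples were at 6.76, 5.67 and 7.40 RPM and the shAjuba2 samples at 3.16, 3.13 and 2.82 RPM. shScrambled was at 3.68 and 4.21 RPM, Parental at 4.29 and 4.98 RPM, Control at 3.87, 4.59 and 4.33 RPM and Ajuba OE at 3.92, 3.81 and 3.85 RPM. shAjuba1 was thus above, and shAjuba2 below, all samples of the other 4 lines. MSI1 rose in shAjuba1 by a log2 fold change of 0.73 (standard error 0.143, edgeR adjusted p = 0.00153), a 1.66-fold increase that passed under every alternative tried. In shAjuba2 it was -0.43 (standard error 0.171, edgeR adjusted p = 0.165), which passed only with Parental as the control (-0.67, 0.0494). In Ajuba OE it was -0.08 (edgeR adjusted p = 0.793).

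BMI1 (ENSG00000168283, chr10:22321099-22331484, plus strand) encodes a RING finger subunit of Polycomb repressive complex 1, which silences cell cycle inhibitors. Its line means lay between 29.9 RPM in shAjuba1 and 35.7 RPM in Control, and each line overlapped its neighbour in the order of levels. The log2 fold change was -0.12 in shAjuba1, -0.04 for shAjuba2 and -0.14 for Ajuba OE (edgeR adjusted p = 0.399, 0.879 and 0.657), with standard errors of 0.103, 0.130 and 0.136. The read-through gene COMMD3-BMI1 shares 1000 exon bases, 22.8% of those of BMI1, and held 8 counts over all samples, and how reads of the shared bases were assigned is not known. The pseudogene BMI1P1 held 0 counts.

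SMOC2 (ENSG00000112562, chr6:168441151-168673445, plus strand) encodes a calcium-binding matrix protein of the crypt base. It held 24, 5 and 27 counts in shAjuba2, 10 and 7 in Parental, 8 and 2 in shScrambled, 2, 2 and 3 in shAjuba1, 0, 1 and 3 in Control, and 0 in all 3 samples of Ajuba OE. Replicates 1 and 3 of shAjuba2 were above all other samples, whereas replicate 2 of the line, at 0.113 RPM, was below both Parental samples, at 0.249 and 0.131 RPM. It entered the test of shAjuba2 only through its level in that line, so nothing is read from its fold change, which was 1.68 on the log2 scale (edgeR adjusted p = 0.240) and 0.80 to 3.19 with a sample left out. OLFM4 (ENSG00000102837, chr13:53028813-53052057, plus strand), which encodes a secreted glycoprotein used as a marker of human crypt base stem cells, held 4 counts in all, and 13 of the 16 samples were at 0.

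Set against their control lines, the markers did not move as one group. In shAjuba1, 6 of the 7 genes tested passed, 2 higher (CD24 and MSI1) and 4 lower (EPCAM, ALCAM, CD44 and SOX9), where 38.4% of all 21082 genes tested passed, 18.2% higher and 20.2% lower. The median log2 fold change of the 7 was -0.24, against -0.01 over all genes tested. In shAjuba2, 0 of 8 passed in edgeR's test, where 7.63% of 22446 genes passed, 3.19% higher and 4.44% lower. EPCAM, CD24 and MSI1 had an unadjusted p under 0.05 there, 3 of 8, as did 26.2% of all genes, and DESeq2 called EPCAM and CD24, 2 of 8, and 11.1% of all genes. The median was -0.02, against -0.01 over all genes. The number of all genes that passed moved with single samples, from 1713 to 182 or 223 without replicate 2 or 1 of shScrambled, to 492 without replicate 1 of shAjuba2 and to 4983 (22.7%) without its replicate 2. Without that last sample EPCAM and CD24 passed, and SMOC2, which was tested only through shAjuba2, was called with them; without replicate 3 of shAjuba2 EPCAM passed. In Ajuba OE, 1 of 7 passed (CD24, lower), where 5.43% of 21140 genes passed, 2.39% higher and 3.03% lower, and without replicate 2 of Ajuba OE, 2 of 7 passed (CD24 and EPCAM), with 4.57% of all genes. The median was -0.06, against -0.01 over all genes. Of all genes that passed there, 44.1% were higher, and 32.5% with scaling by the total count alone. shAjuba1 and shAjuba2 share the shScrambled samples, so their values are given side by side only.

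**Figure D4:**
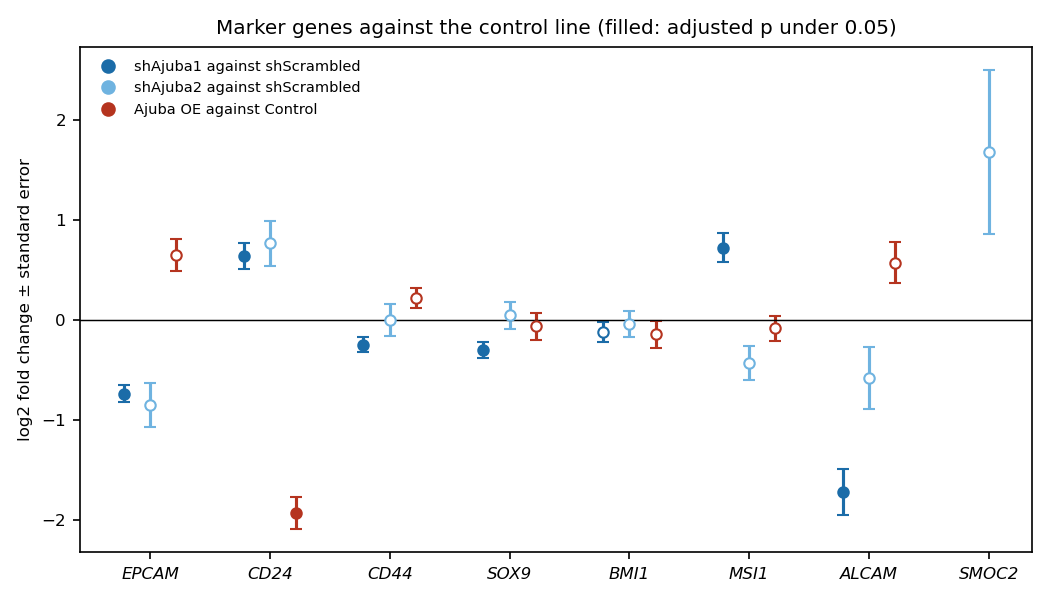
log2 fold change of 8 of the genes against the control line, with bars for the standard error, for shAjuba1 and shAjuba2 against shScrambled and Ajuba OE against Control; filled points passed at an adjusted p under 0.05. EPCAM lies at -0.73, -0.84 and 0.65, CD24 at 0.64, 0.77 and -1.93, and MSI1 at 0.73, -0.43 and -0.08.

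The knockdown lines were compared with each other, since a call in one and not in the other does not show that they differ. Of 7 markers tested, 2 passed, ALCAM lower and MSI1 higher in shAjuba1, where 19.6% of 21600 genes passed, 9.47% higher and 10.1% lower. MSI1 differed by a log2 fold change of 1.17 (standard error 0.153, edgeR adjusted p = 8.39e-04) and passed with every sample left out in turn. ALCAM differed by -1.12 (standard error 0.314, edgeR adjusted p = 0.0324), a call that was lost without any one of the shAjuba1 samples (edgeR adjusted p = 0.0943 to 0.106) or without replicate 1 of shAjuba2 (-0.85, 0.114). EPCAM differed by 0.12 (standard error 0.183, edgeR adjusted p = 0.667) and CD24 by -0.12 (standard error 0.181, 0.676). Without replicate 2 of shAjuba2, CD44 (-0.37) and SOX9 (-0.41) passed with ALCAM and MSI1, where 26.9% of all genes passed; SMOC2 was called as well but was tested there only through its level in shAjuba2.

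Across Parental, shScrambled and Control, lines in which Ajuba was not altered, 0 of 7 markers passed edgeR's test, whereas 10.9% of 22170 genes did. CD24 and ALCAM had an unadjusted p under 0.05, 2 of 7 (edgeR adjusted p = 0.100 and 0.111), as did 30.9% of all genes, and DESeq2 called 0. Without replicate 2 of Control, EPCAM and CD24 passed, where 29% of all 21683 genes tested passed. Over all 6 lines, 7 of 8 markers passed, SMOC2 among them, which was tested only through shAjuba2, and BMI1 did not (edgeR adjusted p = 0.462), where 45.7% of 23597 genes passed. CD24 had the smallest adjusted p of the 8 (4.75e-07), followed by EPCAM (9.75e-06) and MSI1 (7.51e-05). CD44 (0.0280) and SOX9 (0.0236) were the closest to the threshold, and both were lost without any one of the shAjuba1 samples; CD44 was also lost without replicate 1 or 2 of Parental or of shScrambled, replicate 3 of Control, or replicate 1 or 3 of Ajuba OE. PROM1 was called without replicate 1 of Parental.

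Other genes of the crypt base were examined in a list of 20. LGR5, the receptor for R-spondin and the marker of cycling crypt stem cells, was at 1.54 RPM in shScrambled, 0.298 in shAjuba1, 0.0946 in shAjuba2, 0.800 in Parental, 0.235 in Control and 0.0723 in Ajuba OE. It held 52 and 83 counts in shScrambled, 10, 9 and 14 in shAjuba1 and 5, 6 and 2 in shAjuba2, the last near the limit of 3 counts. LGR5 fell in shAjuba1 (log2 fold change -2.42, edgeR adjusted p = 1.96e-05). In shAjuba2 it passed as lower (edgeR adjusted p = 0.00157) but was tested only through its level in shScrambled, so no fold is given, and it was too low to be tested in Ajuba OE. The control lines themselves differed in LGR5 (edgeR adjusted p = 0.00227 over the 3). ASCL2 is a Wnt-dependent master regulator of the same cells. Against its control line it rose in shAjuba1 (0.66, edgeR adjusted p = 0.00835) and in Ajuba OE (1.35, 0.00109) and had 0.57 in shAjuba2 (0.0604). The control lines differed in it as well (edgeR adjusted p = 4.99e-04). ASCL2 was at 10.7 RPM in shAjuba1, 10.3 in shAjuba2 and 6.69 in shScrambled, but at 16.4 in Parental and 17.8 in Control. Both knockdown lines were thus above shScrambled and below Parental and Control. In shAjuba1, 14 of 19 genes of the list passed, 10 higher and 4 lower, where 38.4% of all genes passed. TERT (2.24), the catalytic subunit of telomerase, and CDCA7 (1.15) were the next largest. In shAjuba2, 6 of 19 passed, 4 higher and 2 lower, where 7.63% of all genes passed. TERT (1.61) and SOX4 (1.29) were among the higher, and LGR5, tested only through shScrambled, is counted among the lower. Without replicate 2 of shAjuba2, 11 of 19 passed, beside 22.7% of all genes, and ASCL2 passed as well (0.65, edgeR adjusted p = 0.00222). In Ajuba OE, 5 of 18 passed, 4 higher and 1 lower, with SOX4 at -1.15 and NAV1 at 0.55, where 5.43% of all genes passed. Without replicate 2 of Ajuba OE, 3 of 19 passed, beside 4.57% of all genes. The medians in shAjuba1, shAjuba2 and Ajuba OE were 0.31, 0.07 and 0.09, with LGR5 included where it was tested. Across Parental, shScrambled and Control, 8 of 19 genes of the list passed, where 10.9% of all genes did.

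Among 12 further cancer stem cell markers, 7 of 9 tested passed in shAjuba1 (2 higher, 5 lower, median -0.39), where 38.4% of all genes did. In shAjuba2, 2 of 9 passed (both lower, median -0.45), where 7.63% did, and 4 without its replicate 2, where 22.7% did. In Ajuba OE, 2 of 9 passed (1 in each direction, median -0.04), where 5.43% did. KIT, a receptor tyrosine kinase, held 21 and 44 counts in shScrambled, 10, 2 and 2 in shAjuba1 and 4, 5 and 3 in shAjuba2. It passed as lower in both, tested only through shScrambled, and is included in these counts and medians. In shAjuba1 the chemokine receptor CXCR4 rose (2.12) and PROCR, the receptor of protein C, fell (-1.29). PROCR was at 6.90 RPM in shScrambled and 2.84 RPM in shAjuba1, but at 3.39 RPM in Parental and 2.66 RPM in Control. DCLK1, a tuft cell kinase, fell in shAjuba2 (-0.76) and in Ajuba OE (-0.93), where the drug efflux pump ABCB1 rose (1.19). DCLK1 was at 541 RPM in shScrambled and 331 RPM in shAjuba2, but at 364 RPM in Parental and 369 RPM in Control. ALDH1A1, the aldehyde dehydrogenase used to sort stem-like cells, was at most 0.102 RPM and at 0 in 4 samples, and it was not tested.

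Of 10 pluripotency and RNA-binding factors, 5 of 8 tested passed in shAjuba1 (4 higher, 1 lower, median 0.38), 1 of 8 in shAjuba2 (median 0.26; 5 without its replicate 2) and 3 of 8 in Ajuba OE (2 higher, 1 lower, median 0.16). SALL4 and MYC rose in shAjuba1 (0.97 and 0.94) and in Ajuba OE (0.81 and 0.84). POU5F1, whose reads can be shared with pseudogenes, was at -0.87 in shAjuba1 and is uncertain. SOX2 rose in shAjuba2 (1.58). LIN28A, at 0.223 RPM in Ajuba OE and 0.743 RPM in Control, passed as lower in that comparison. It was tested only through its level in Control, so no fold is given. Of the 15 Polycomb partners of BMI1, 2 passed in shAjuba1 (CBX2 at 0.44 and PHC2 at -0.35), 1 in shAjuba2 (CBX2 at 0.67; 6 without its replicate 2) and 1 in Ajuba OE (PHC2 at 0.57; 0 without its replicate 2), with medians of 0.01, -0.02 and 0.04. Of all genes tested, 38.4% passed in shAjuba1, 7.63% in shAjuba2 (22.7% without its replicate 2) and 5.43% in Ajuba OE (4.57% without its replicate 2). The shares of the Polycomb partners in shAjuba2 and Ajuba OE, with all samples, were near those of all genes tested.

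The enzymes, proteases and partners of CD44 and EPCAM formed a list of 15. In shAjuba1, 6 of 14 tested passed, 1 higher and 5 lower, with a median of -0.09, where 38.4% of all genes passed. ESRP1, the splicing factor that sets epithelial splice forms of CD44, fell there (-1.91), as did the hyaluronan synthase HAS2 (-0.91) and MMP14 (-0.82), a protease that cleaves CD44. In shAjuba2, 2 of 14 passed, ESRP1 lower (-1.04) and HAS3 higher (0.87), with a median of -0.18, where 7.63% of all genes passed. Without replicate 2 of shAjuba2, 5 of 14 passed, beside 22.7% of all genes. In Ajuba OE, 5 of 14 passed, 4 higher and 1 lower, with a median of 0.18, where 5.43% of all genes passed. CLDN7, a claudin that binds EpCAM, rose there (0.89), and HAS2 fell (-1.55). ESRP1 differed between the control lines too (edgeR adjusted p = 0.0182), as did CXCR4 (0.0119), SOX2 (0.0111), MYC (0.0279), SOX4 (0.0406) and HAS3 (0.0396).

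Of 16 genes of colonic differentiation, most were too low to be tested. In shAjuba1, 4 of 7 tested passed, 1 higher and 3 lower (median -0.44), where 38.4% of all genes passed. In shAjuba2, 3 of 8 passed, all lower (median -0.41), where 7.63% did, and in Ajuba OE, 2 of 8, both higher (median 0.43), where 5.43% did. The knockdown values include TFF3, and in shAjuba1 MUC2, each limited as described below. VIL1, which encodes villin of the brush border, fell in shAjuba1 (-1.41) and shAjuba2 (-2.38) and rose in Ajuba OE (1.03), and it differed between the control lines (edgeR adjusted p = 0.00210). CHGA, a marker of enteroendocrine cells, fell in shAjuba2 (-1.21). In shAjuba1 the mucin gene MUC2 passed as higher, at 0.945 RPM against 0.328 RPM in shScrambled. It was tested only through its level in shAjuba1, so no fold is given. TFF3, of the same goblet cells, held 15 and 15 counts in shScrambled, 4, 5 and 4 in shAjuba1 and 0 in all shAjuba2 samples; it was tested only through shScrambled, and no fold is given. CDX2, the homeobox factor of intestinal identity, rose in Ajuba OE (0.64), and the control lines differed in it (edgeR adjusted p = 0.00805). Across the control lines, 4 of 8 differentiation genes passed, where 10.9% of all genes did. Of the further stem cell markers 4 of 10 passed there, and of the pluripotency and RNA-binding factors 3 of 8. Of the partners of CD44 and EPCAM 2 of 15 passed there, and of the Polycomb partners 0 of 15.

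**Figure D5:**
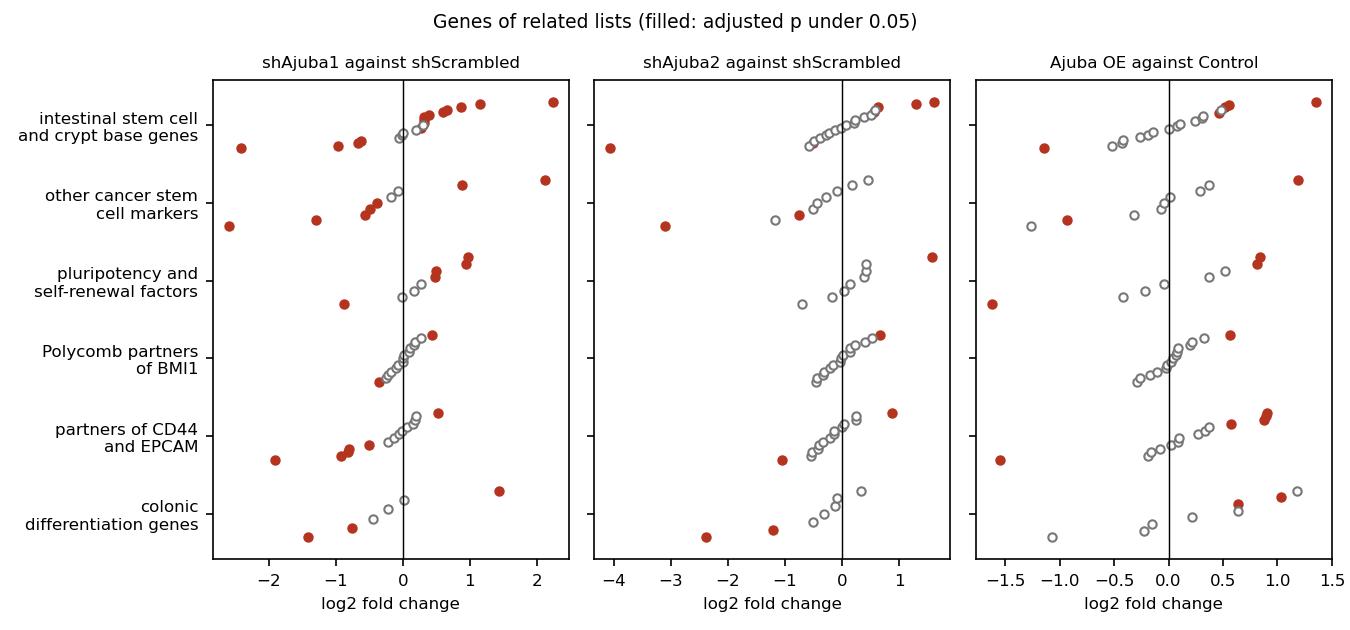
log2 fold change of the tested genes of the 6 related lists in shAjuba1 and shAjuba2 against shScrambled and in Ajuba OE against Control, with 1 point per gene, filled where the adjusted p was under 0.05, and TFF3 left out. The axes differ between panels, and the Polycomb partners that passed in any panel, CBX2 and PHC2, lie within 0.67 of 0. The points farthest to the left in the knockdown panels are LGR5 and KIT, whose counts in the knockdown lines were at most 14 and 10.

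The genes most like each marker were found by Pearson's correlation of the 6 line means of log2 CPM over 9498 genes, those with a symbol among the genes that passed across the lines, and they are given as a description over 6 points from shared libraries. KRT23 followed EPCAM most closely (r = 0.998) and ST6GALNAC3, a sialyltransferase, followed CD24 (r = 0.999). GPRC5B followed CD44 (r = 0.997), SERPINF1 followed ALCAM (r = 0.993), SMC5-DT followed SOX9 (r = 0.994), TXK followed SMOC2 (r = 0.993) and HMOX1, which encodes heme oxygenase, followed MSI1 (r = 0.994). The second for each were INPP5F for EPCAM (0.997), FRMD6 for CD24 (0.997), WFS1 for CD44 (0.981), ANKH for ALCAM (0.988), LINC01410 for SOX9 (0.994), USP44 for SMOC2 (0.981) and ZBTB10 for MSI1 (0.990).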

How the data were processed

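Stranded mRNA libraries of 16 samples were sequenced in pairs. The authors aligned the reads to hg38 with HISAT2, counted read pairs on exons with featureCounts and deposited raw counts per gene; the strand option, the handling of reads on overlapping genes and the annotation release are not given in the sources used here. RPM was computed from these deposited counts as count over column total, times 1e6. Symbols, positions and merged exon lengths came from GENCODE 44, which held 56434 of the 66023 identifiers and 99.8% of the counts.

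Samples were grouped by line as labelled. The lines of a comparison were fitted on their own with edgeR 4.0.16 (R 4.3.3, limma 3.58.1): filterByExpr by line, TMM, and a two-sided quasi-likelihood test whose p-values were adjusted by Benjamini and Hochberg's method over all genes tested, passing under 0.05. Standard errors are the size of the log2 fold change over the root of F. Replicates were compared by the chi-square statistic per gene relative to the value counting noise would give, as the median over genes. log2 CPM used a prior count of 2. The fits were tested on simulated data. Plots used matplotlib 3.10.9 and pandas 2.3.3 in Python 3.11.15. Promoter windows came from RefSeq.

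The named genes are all 10 markers; from each related list, at most the 3 genes that passed with the largest absolute change per comparison, with LGR5, ASCL2 and ALDH1A1 whatever their values; genes overlapping a marker and its pseudogenes; and the 2 most similar genes per marker that passed across the 6 lines. A gene of the related lists and the Y-linked pseudogene of CD24 are not reported here. The EPCAM to CD24 ratio was chosen after values were seen. The markers and lists were chosen with earlier results of these data known. Alternatives were DESeq2 1.42.0, its size factors, total count alone, all genes with at least 1 count, all 16 samples in 1 fit, Parental as the control, overlapping gene models summed, the replicate number as a block, and each sample left out. The related lists were also counted without replicate 2 of shAjuba2 or of Ajuba OE, a choice made after seeing the data.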

Additional observations from a re-analysis of the deposited data

Results flagged for a closer look

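ALCAM and MSI1 differed between the 2 knockdown lines, by the test of shAjuba1 against shAjuba2 itself. The log2 fold change was -1.12 for ALCAM (edgeR adjusted p = 0.0324) and 1.17 for MSI1 (edgeR adjusted p = 8.39e-04). The ALCAM call was lost without any one of the shAjuba1 samples or without replicate 1 of shAjuba2. MSI1 passed with every sample left out in turn. All 3 shAjuba1 samples were below all 3 shAjuba2 samples for ALCAM and above them for MSI1. Read depth bears on ALCAM, which had 13 to 21 counts per sample in shAjuba1, and less on MSI1, which had at least 133 counts in every sample. Each hairpin is represented by 1 line, so hairpin and line cannot be told apart.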

How the results depend on the processing

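The number of markers that passed stayed within 1.5 times under all alternatives in shAjuba1 against shScrambled (4 to 6 with a sample left out, and 4 on all 16 samples, where CD44 and SOX9 did not pass) and across the 6 lines (5 to 7). In shAjuba2 against shScrambled it was 0 to 3 with a sample left out, and 2 in place of 0 with every gene of at least 1 count, with DESeq2, with all 16 samples in 1 fit and with Parental as the control; in Ajuba OE it was 1 to 2 with a sample left out and 2 in place of 1 under the first 3 of these settings and without replicate 2 of both lines, which was added after seeing the data. In shAjuba1 against shAjuba2 it was 1 to 5 with a sample left out and 4 on all 16 samples, and across the control lines 0 to 2, and 2 with every gene of at least 1 count (PROM1 and CD24). Genes that passed in shAjuba2 numbered 1713, but 182 to 4983 with a sample left out and 3210, 2482 and 3672 with every gene, DESeq2 and all 16 samples; in Ajuba OE 1147, but 412 to 988, and 1763 (DESeq2), 2386 (all 16 samples) and 1701 (without replicate 2 of both). In shAjuba1 8103 became 4711 to 9695, between the knockdown lines 4232 became 2177 to 5961, and across the control lines 2416 became 405 to 6278, with 5427 for every gene.

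Same-numbered samples were not taken as pairs. The correlations of their deviations were 0.08 and -0.10 for shAjuba1, 0.08 and 0.21 for shAjuba2, and 0.16, 0.62 and -0.05 for Ajuba OE, in each case against the control line. With the replicate number as a block, 2 markers passed in shAjuba2 (EPCAM and CD24) and 3 in Ajuba OE (CD24, EPCAM and CD44), 6 in shAjuba1, and 5377, 5140 and 8863 genes; across the control lines 443 genes did. The block rests on 2 against 2 samples in the knockdown comparisons.

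Some values changed sign, none with an adjusted p that passed. In shAjuba2, BMI1 was 0.01 with the total count alone and ranged from -0.11 to 0.0172 with a sample left out, CD44 was -0.10 with the block, -0.14 with Parental and -0.0662 to 0.14 with a sample left out, SOX9 was -0.0079 with the block and -0.0318 to 0.14, and ALCAM, at -0.58 with shScrambled, was 0.0116 with Parental. SOX9 in Ajuba OE was 0.12 with Parental and -0.14 to 0.0472 with a sample left out. Between the knockdown lines, BMI1 ranged from -0.12 to 0.019, EPCAM from -0.0781 to 0.32 and CD24 from -0.30 to 0.0497. The causes were not tested. Of 390 fold changes under an alternative, 333 kept their direction and their side of the threshold.

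Depth limits SMOC2, PROM1 and OLFM4, and ALCAM in shAjuba1.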
